A study of Rattus norvegicus with 15 samples.

Results

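Gene expression in cultured rat hepatocytes was compared between cells given a naphthalene with hydroxyl groups and cells given none. The hydroxylated side held 9 arrays, from cells given 1-naphthol (1 hydroxyl group), 1,5-naphthalenediol or 2,7-naphthalenediol (2 hydroxyl groups each), with 3 arrays per compound. The unhydroxylated side held 6 arrays, 3 from cells given naphthalene and 3 from cells given only the solvent, dimethyl sulfoxide (DMSO). These 15 arrays were all of the 15 in the series. The cells were cryopreserved primary hepatocytes of male Wistar rats (spelled Wister in the labels), cultured for 24 h before exposure. Each naphthalene was given at 30 µM for 24 h, so all 4 compounds are compared at a matched dose and time, and the labels call the 3 samples of a group independent experiments. The sources used here give neither the age nor the number of the donor animals, nor whether the experiments shared a lot of cells.

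Naphthalene is a fused pair of aromatic rings that liver cytochrome P450 enzymes oxidise to an epoxide, which rearranges to 1-naphthol, and further oxidation gives diols and quinones. Aromatic ligands can bind the aryl hydrocarbon receptor (AhR), a transcription factor whose known targets include Cyp1a1, Aldh3a1, Nqo1 and Ahrr. Quinones and other electrophiles modify KEAP1 and release NRF2, which turns on genes for reduction, glutathione conjugation and NADPH supply, and naphthols themselves are cleared as glucuronides and sulfates.

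RNA was labelled with Cy3 and hybridised to 1-colour Agilent rat arrays, and every level below is a log2 intensity minus that array's 75th percentile. Levels are compared between groups for a gene, never between genes. The 15 arrays lay on 2 slides. Slide 1 held DMSO, 2,7-naphthalenediol and 2 of the 1,5-naphthalenediol arrays, and slide 2 held naphthalene, 1-naphthol and the remaining 1,5-naphthalenediol array. The reference was therefore DMSO on slide 1 and naphthalene on slide 2, and the pooled comparison fitted with limma kept slide as a block. No slide held both DMSO and naphthalene, so a contrast across slides rests on 1,5-naphthalenediol alone. That compound had 1 array on slide 2. When the 5 groups were fitted with slide, it was compared with naphthalene and 1-naphthol through that array alone. The 9 hydroxylated arrays are 3 arrays each of 3 compounds and not 9 independent cases of hydroxylation; over the 5 groups, the smallest exact 2-sided p that 3 against 2 can give is 0.1. Between 57.4% and 61.0% of spots were well above background on an array, within-group correlations were at least 0.996, and none of the gene spots was saturated. All 10 hepatocyte markers were well above background on all 15 arrays. A probe was matched for 9 of the endothelial, 8 of the bile duct and 9 of the lymphocyte markers, and for all 10 stellate and all 10 macrophage markers. Markers of other liver cell types were measured in part: of 10 listed for each type, 4 were well above background on all 15 arrays for stellate cells and fibroblasts (Col1a2, Des, Acta2 and Reln), 4 for macrophages (Cd68, C1qb, Cd14 and Lyz2), 4 for endothelium (Cdh5, Vwf, Fcgr2b and Eng), 2 for bile duct (Epcam and Sox9) and 1 for lymphocytes (Cd3d). On no array well above background were 3 of the stellate list (Lrat, Dcn and Lum), 6 of the macrophage list (among them Clec4f and Csf1r), 3 of the endothelial list (Pecam1, Lyve1 and Tek), 3 of the bile duct list (Krt19, Spp1 and Cftr) and 6 of the lymphocyte list. The summed linear intensities of each of these 5 lists overlapped between the hydroxylated and the unhydroxylated arrays, and their part in the results was not tested. These sums were not scaled by the array's 75th percentile, which ran from 1718 to 2074, so a close overlap may depend on the missing scaling. In bulk RNA, fewer cells of a type and less RNA per cell cannot be told apart.

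Of 19784 genes tested, 811 (4.1%) differed between hydroxylated and unhydroxylated arrays at a Benjamini-Hochberg adjusted p below 0.05, of which 352 (1.78%) rose and 459 (2.32%) fell. Most of the differences were small: the median size among the 811 was 0.23 on the log2 scale, and 10 genes reached 2-fold, 9 of them upward. On the arrays themselves, 224 genes (1.13%) lay above every unhydroxylated array of the same slide on both slides and 370 (1.87%) lay below, and 439 of these 594 were among the 811. The split between directions moved with the background correction, from 352 rising and 459 falling to 355 rising and 837 falling with normexp correction. Which arrays were present also mattered. The count was 314, 279 or 244 without DMSO replicate 1, 2 or 3, 416 without naphthalene replicate 3, 424 without 1,5-naphthalenediol replicate 1, and 522 or 525 without 1-naphthol replicate 2 or 3. Of the 811 genes, 197 were called whichever 1 array was left out.

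The 3 genes with the largest changes among those that passed, Aldh3a1, Cyp1a1 and Ahrr, are AhR targets. Of 15 tested genes of the AhR list, 4 rose and none fell (26.7% against 4.1% of all genes; 3 rose and 1 fell with normexp correction), with a median change of 0.13 over the 15 against -0.01 over all genes. The level of Aldh3a1, an aldehyde dehydrogenase, was -7.81 at the lowest, -7.57 at the median and -7.51 at the highest over the 6 unhydroxylated arrays, and -5.67, -3.89 and -3.23 over the 9 hydroxylated arrays. The sides did not overlap. Aldh3a1 was not well above background on any of the 6 unhydroxylated arrays and was on all 9 hydroxylated arrays, so the rise is given as at least 9.94-fold (fitted log2 change 3.40 ± 0.33 SE, adjusted p = 0.000484). Cyp1a1, the P450 that oxidises polycyclic aromatic hydrocarbons, ranged from -0.39 through a median of -0.15 to 0.06 without a hydroxylated compound and from 0.24 through 2.02 to 2.30 with one. It rose 3.2-fold (log2 change 1.68 ± 0.28 SE, adjusted p = 0.00788), and the lowest hydroxylated values were those of 2,7-naphthalenediol.

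**Figure D1:**
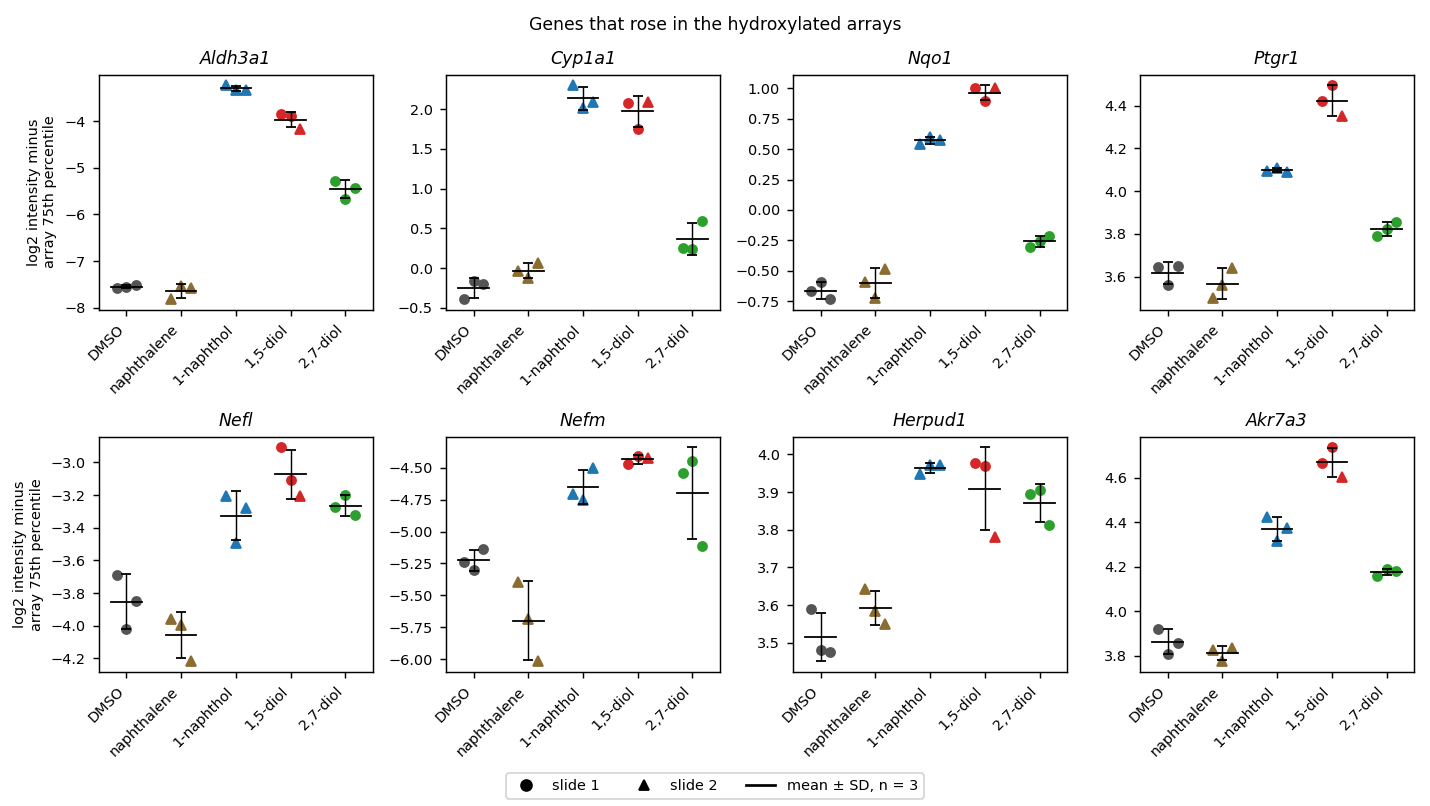
Level of 8 genes that rose, by group; each point is 1 array (circle slide 1, triangle slide 2), and the bar and whisker are the mean and SD of 3 arrays. For Aldh3a1, Cyp1a1, Nqo1, Ptgr1 and Akr7a3 the 2,7-naphthalenediol arrays lie nearest to the unhydroxylated groups, whereas Nefl, Nefm and Herpud1 lie at similar heights in the 3 hydroxylated groups.

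Nqo1, a quinone reductase that belongs to both the AhR and the NRF2 lists, ranged from -0.73 through -0.63 to -0.48 on the unhydroxylated side and from -0.30 through 0.58 to 1.00 on the hydroxylated side, without overlap. It rose 2.11-fold (log2 change 1.07 ± 0.20 SE, adjusted p = 0.0141). Ahrr, the repressor that AhR itself induces, was well above background on 6 of 9 hydroxylated and on none of the unhydroxylated arrays. It rose by at least 2.17-fold (fitted log2 change 1.34 ± 0.32 SE, adjusted p = 0.0344). Its sides overlapped, with -8.74 to -7.29 unhydroxylated and -8.00 to -5.57 hydroxylated. Ahrr and Aldh3a1 both passed the filter on dim probes through hydroxylated groups alone. Their place among the rises of the AhR list is therefore not independent of where they are high. The call for Ahrr was lost with 9 of the 15 arrays left out in turn, most with DMSO replicate 3 (adjusted p = 0.0932), whereas the calls for Aldh3a1, Cyp1a1 and Nqo1 were kept in all 15. Other targets did not pass. Cyp1a2, the second hepatic member of this P450 family, had a change of 0.16 (adjusted p = 0.119), which passed when its probes were averaged (adjusted p = 0.0461), with 5 group means (0.0211) and without the 1,5-naphthalenediol arrays (0.0253). In the pairs, Cyp1a2 was higher with 2,7-naphthalenediol than with DMSO by 0.25 (adjusted p = 0.0409). The glucuronosyltransferase Ugt1a6 had -0.07 (adjusted p = 0.131; 0.23 and adjusted p = 0.00782 when its probes were averaged), and the receptor Ahr itself 0.14 (adjusted p = 0.148).

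Promoter windows of 300 bases, 250 before to 50 after the RefSeq start site (GRCr8), are shown for Ahrr and Nqo1 because both rose and are known AhR targets; of the 4 AhR list genes that rose, Aldh3a1 and Cyp1a1 had no matched window. Capitals mark GCGTG, the core of the xenobiotic response element to which AhR binds, on either strand. The Ahrr window (chr1:30821969-30822268, plus strand) holds 3 such cores, which begin 142, 117 and 57 bases before the start. The Nqo1 window (chr19:52220218-52220517, minus strand) holds 1, read on the opposite strand 10 bases before the start. The core is common: 29.7% of 33465 rat promoter windows of this length hold it. For the antioxidant response element to which NRF2 binds, TGACNNNGC on either strand, windows were matched for 6 of the 13 NRF2 list genes that rose, and 2 of the 6 hold it (Me1 and Ugdh, not Nqo1), against 12.1% of all windows. Bases outside the windows were not searched, so a window without a match does not show that the gene lacks the element. A match describes the letters and is neither a binding site shown here nor a cause.
Ahrr: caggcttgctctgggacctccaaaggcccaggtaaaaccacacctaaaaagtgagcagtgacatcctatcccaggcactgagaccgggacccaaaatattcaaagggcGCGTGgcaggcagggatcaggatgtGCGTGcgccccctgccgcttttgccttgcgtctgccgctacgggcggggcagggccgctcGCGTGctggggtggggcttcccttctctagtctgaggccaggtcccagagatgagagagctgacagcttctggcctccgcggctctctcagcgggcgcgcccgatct
Nqo1: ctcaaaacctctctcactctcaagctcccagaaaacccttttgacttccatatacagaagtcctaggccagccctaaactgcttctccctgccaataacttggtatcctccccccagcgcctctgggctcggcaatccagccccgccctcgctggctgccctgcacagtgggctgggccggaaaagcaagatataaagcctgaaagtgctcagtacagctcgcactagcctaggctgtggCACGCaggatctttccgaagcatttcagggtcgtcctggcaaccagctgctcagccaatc

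The NRF2 list, the largest tested, held more rises than any other list, but the endoplasmic reticulum list described below had a higher share called (38.5%). Of 46 genes tested, 13 rose and none fell (28.3%), and 38 had a change above 0. Akr7a3, an aldo-keto reductase for aflatoxin dialdehyde, lay between 3.78 and 3.92 on unhydroxylated and between 4.16 and 4.74 on hydroxylated arrays. It rose 1.48-fold (0.57 ± 0.09 SE, adjusted p = 0.00679). Ptgr1, which reduces unsaturated ketones and aldehydes, had a median of 3.60 and a highest value of 3.65 on the unhydroxylated side and ranged from 3.79 through 4.10 to 4.50 on the hydroxylated side, with no overlap. It rose by 0.52 (SE 0.11, adjusted p = 0.0191), a call that ended without DMSO replicate 2 at adjusted p = 0.0501. Ugdh (UDP-glucuronic acid supply), Aox1 (aldehyde oxidase), Gsta3 (a glutathione transferase) and Entpd5 (an ER nucleotidase) rose by 0.38, 0.35, 0.32 and 0.18. Calls for these 4 genes, Akr7a3 and Nqo1 were kept whichever 1 array was left out. The list's count was 8 without DMSO replicate 1, 2 or 3. Classical NRF2 targets that did not pass included Gclc (0.11, adjusted p = 0.14), which makes glutathione's precursor, Srxn1 (0.12, adjusted p = 0.369) and Txn1 (0.04, adjusted p = 0.631). Hmox1, heme oxygenase, rose by 0.29 (adjusted p = 0.0462), but that call was lost with 13 of the 15 arrays left out in turn, most with DMSO replicate 1 (adjusted p = 0.105).

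Enzymes that reduce or oxidise quinones, carbonyls and aldehydes gave 9 rises and no fall among 39 tested (23.1%), although the median of the list was 0.05. The count was 5 without DMSO replicate 3. Aldh3a1, Nqo1, Akr7a3, Ptgr1 and Aox1, described above, led these, followed by the epoxide hydrolase Ephx1 (0.34, adjusted p = 0.0184) and the P450 reductase Por (0.28, adjusted p = 0.0169; lost without DMSO replicate 3 at adjusted p = 0.0512). Relatives of the same families had smaller values: Aldh2 (0.06, adjusted p = 0.395), Aldh1a1 (0.08, adjusted p = 0.168), Cbr1 (-0.01, adjusted p = 0.94) and Nqo2 (-0.07, adjusted p = 0.38) did not pass.

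Some genes with a sizeable pooled difference did not pass the pooled test, and in the 4 described here the 3 hydroxylated compounds stood apart. Gstp1, the pi-class glutathione transferase, was 0.03 ± 0.05 (SD, n = 3) with DMSO, 0.12 ± 0.04 with naphthalene, 0.38 ± 0.05 with 2,7-naphthalenediol, 0.95 ± 0.04 with 1-naphthol and 2.31 ± 0.05 with 1,5-naphthalenediol. Every hydroxylated array lay above every unhydroxylated one, yet the pooled change of 1.15 had an SE of 0.34 and an adjusted p of 0.0712. A limma F test among the 3 hydroxylated compounds gave an adjusted p of 3.4e-09. Akr1b8, an aldo-keto reductase, had the same order of the 3 hydroxylated compounds, with group means of -2.0, -2.04, -1.78, -1.49 and -0.30 in that sequence of groups (pooled 0.83, adjusted p = 0.0938; among hydroxylated 3.7e-08). The small heat shock protein Hspb1 had -0.10, -0.02, 0.09, 0.61 and 2.52 (pooled 1.14, adjusted p = 0.148; among hydroxylated 2.33e-07), and the alpha-class transferase Gsta2 had 2.80, 2.86, 2.86, 3.63 and 3.99 (pooled 0.68, adjusted p = 0.0554; among hydroxylated 3.09e-05). Gstp1, Akr1b8 and Hspb1 passed the pooled test without the 1,5-naphthalenediol arrays (adjusted p = 0.00465, 0.011 and 0.0359), and all 4 genes passed without the 2,7-naphthalenediol arrays (0.00496, 0.00853, 0.0157 and, for Gsta2, 0.000202). The processing moved some of these calls: Gsta2 passed with quantile normalization (adjusted p = 0.0465), normexp correction (0.0252), the stricter filter on dim probes (0.0447) and without 2,7-naphthalenediol replicate 1 or 2 (0.026 and 0.0403), Gstp1 passed with normexp correction (0.0356), and all 4 passed with 5 group means.

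The 5 groups form 10 pairs, which were all compared, with p-values adjusted over all genes and pairs together. Against naphthalene, 798 genes (4.03%) differed with 1-naphthol, 1393 (7.04%) with 1,5-naphthalenediol and, across slides, 162 (0.819%) with 2,7-naphthalenediol. Against DMSO, 2680 genes (13.5%) differed with 1,5-naphthalenediol, 1860 (9.4%) with 2,7-naphthalenediol and, across slides, 665 (3.36%) with 1-naphthol. Aldh3a1 was the 1 gene (0.00505%) that differed in the same direction in all 6 pairs of a hydroxylated with an unhydroxylated group. Because Aldh3a1 was not well above background with naphthalene or DMSO, its differences from these groups are bounds. Relative to naphthalene it was at least 18-fold higher with 1-naphthol and at least 3.3-fold higher with 2,7-naphthalenediol (adjusted p of the fitted differences 3.68e-09 and 0.000225). In the 1 array of 1,5-naphthalenediol on slide 2 it was at least 9.9-fold higher than with naphthalene. On the log2 scale, Cyp1a1 was 2.17 higher than naphthalene with 1-naphthol and 2.13 higher with 1,5-naphthalenediol. With 2,7-naphthalenediol the difference of Cyp1a1 from naphthalene, across slides, was 0.57 (0.10 to 1.05, adjusted p = 0.156) and did not pass. Its difference from DMSO, on the same slide, was 0.61 (0.35 to 0.88, adjusted p = 0.0163) and passed. Naphthalene itself differed from DMSO by 0.04 for Cyp1a1 (-0.44 to 0.52) and by 0.01 for Nqo1 (-0.23 to 0.25), neither of which passed, and for Aldh3a1 no difference can be given, as both groups were at background.

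**Figure D2:**
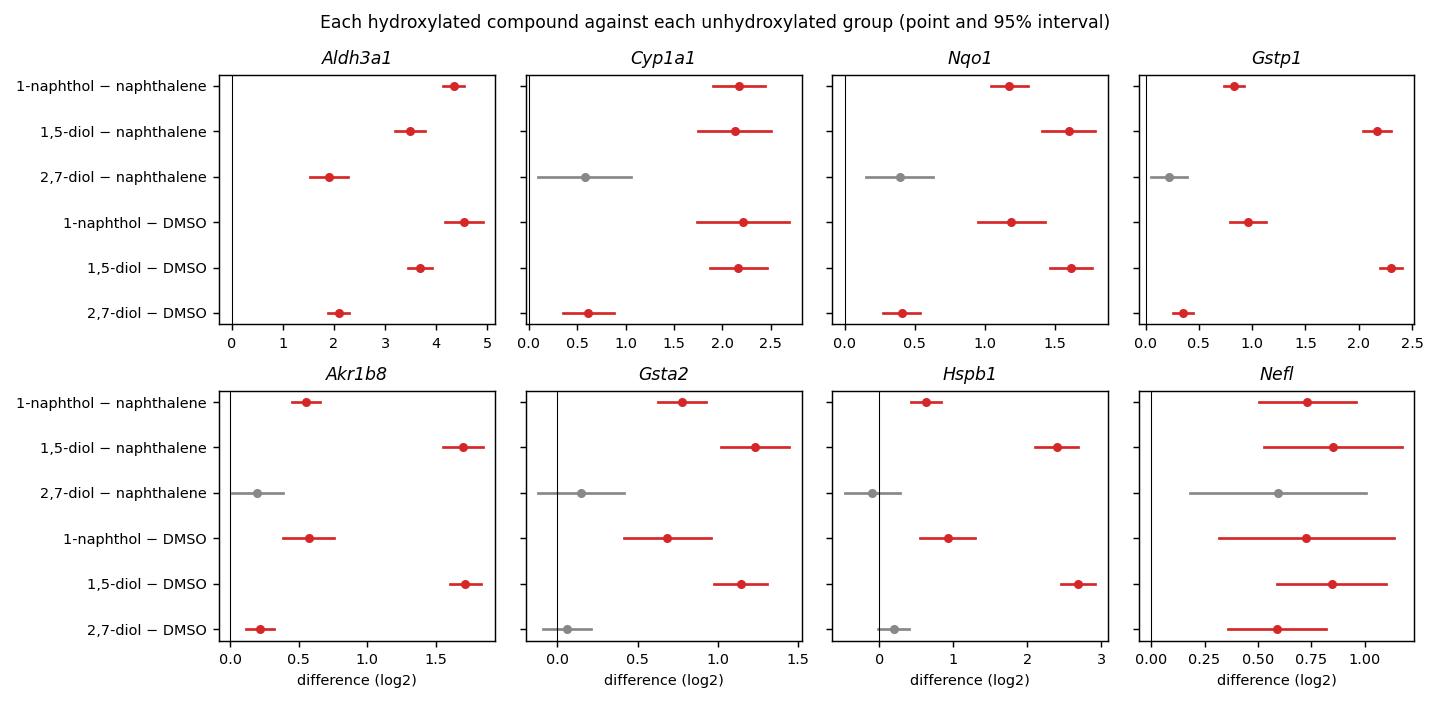
Difference on the log2 scale between each hydroxylated compound and each unhydroxylated group for 8 genes, as a point with its 95% interval; red marks an adjusted p below 0.05 over all genes and 10 pairs. Aldh3a1 is red in all 6 pairs, where its points are fitted values against groups at background, and for Gsta2 and Hspb1 both 2,7-naphthalenediol pairs are grey.

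The 3 hydroxylated compounds, which differ in position or number of hydroxyl groups, gave different sizes of response in some genes. With 1 compound for each structure, position and number cannot be told apart from other traits of a compound. The 1,5-diol carries a second hydroxyl relative to 1-naphthol, and the 2 were compared through the 1 array of that diol on slide 2. Relative to 1-naphthol, the diol was lower by 0.86 for Aldh3a1 and higher by 0.43 for Nqo1 and by 1.34 for Gstp1. For Cyp1a1 the difference was -0.04. The 1,5- and 2,7-diols differ only in where their hydroxyls sit, and 1671 genes (8.45%) differed between them. The 1,5-diol was higher by 1.59 for Aldh3a1 (adjusted p = 2.99e-05), by 1.55 for Cyp1a1 (adjusted p = 0.000196), by 1.20 for Nqo1 (adjusted p = 8.17e-06) and by 2.50 for Hspb1 (adjusted p = 7.33e-07). The 2,7-diol differed from 1-naphthol in 231 genes (1.17%), across slides, and was lower by 2.45 for Aldh3a1 (adjusted p = 3.77e-05) and by 0.78 for Nqo1 (adjusted p = 0.0032). Egr1, an immediate early transcription factor, ran the other way: the 2,7-diol was higher than 1-naphthol by 1.63 (adjusted p = 0.00987). For Nefl none of the 3 pairs of hydroxylated compounds passed, with differences of 0.12 (-0.20 to 0.44), -0.14 (-0.55 to 0.27) and 0.26 (0.00185 to 0.51) on the log2 scale and adjusted p of 0.708, 0.738 and 0.235.

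Over all genes, 2114 (10.7%) differed among the 3 hydroxylated compounds by the F test in the model of 5 group means. In that same model the contrast of hydroxylated with unhydroxylated groups called 3047 genes (15.4%). All 811 pooled calls were also called by that contrast. By the F test, 175 (21.6%) of the 811 differed among the hydroxylated compounds and 636 did not pass. The pooled test counts differences between compounds as spread, so it favours genes in which they are alike. A gene that did not pass the F test is not thereby shown to be the same in the 3 compounds. The genes with the widest ranges among these compounds that were not named for another reason were mostly dim, and as they were chosen for that range their values are a description. Coro1a, an actin-binding protein of leukocytes, had -8.95 ± 0.21 with 2,7-naphthalenediol, -8.39 ± 0.58 with 1-naphthol and -5.49 ± 0.40 with 1,5-naphthalenediol (SD, n = 3). Coro1a, Xirp2, Mgarp and Prom2 were each well above background on 3 hydroxylated arrays and on none of the unhydroxylated arrays, so that each passed the filter on dim probes through 1 compound alone, and Cimap2 on 5 and none. All 5 genes had their highest mean with 1,5-naphthalenediol, as had Prkar2b and Sh3tc1 (-6.19, -5.49 and -3.96 in the same order). Ccl2, a monocyte chemoattractant, ran the other way, with -3.01 ± 0.31, -4.32 ± 0.19 and -4.59 ± 0.81.

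Lists of conjugation and drug metabolism held smaller shares of calls. Of 23 glutathione transferase genes 3 rose and 1 fell (17.4%). Gsta5 rose by 0.50 (adjusted p = 0.0277; lost without DMSO replicate 1, 2 or 3 or naphthalene replicate 3, at up to 0.0597) and Gsta3 by 0.32 (adjusted p = 0.0156). Gstm3, a mu-class transferase, fell from 1.30 to 1.54 on unhydroxylated arrays to 0.95 to 1.25 on hydroxylated arrays (log2 change -0.31 ± 0.03 SE, adjusted p = 0.000504). Without DMSO replicate 1, 2 or 3, 1 member rose and 1 fell, and without naphthalene replicate 1, 3 rose and 2 fell. Transferases of this family share long stretches of sequence, so a probe may read more than its named gene. Among 27 genes of glucuronidation and sulfation, 2 rose and 2 fell (14.8%) (Ugdh and Papss2, against the sulfotransferase Sult1a1 and the methyltransferase Nnmt). These counts ran from 1 to 4 rises and 0 to 3 falls as 1 array was left out, and Ugdh was the 1 member called throughout. Of 34 genes of CAR and PXR targets and other P450s, 5 rose (14.7%), and Cyp2a1, a testosterone hydroxylase, was the 1 whose call (0.37 ± 0.05 SE, adjusted p = 0.00201) held whichever array was left out. The list's count was 2, 2 or 1 without DMSO replicate 1, 2 or 3 and 3 without 1,5-naphthalenediol replicate 1, 1-naphthol replicate 2 or 3 or naphthalene replicate 3. Of 23 efflux and uptake transporters 2 rose (8.7%), the efflux pumps Abcc3 (0.29, adjusted p = 0.0465) and Abcc5 (0.19, adjusted p = 0.0372). Abcc3 lost its call with 13 arrays left out in turn and Abcc5 with 10, DMSO replicate 3 giving the highest adjusted p in both (0.111 and 0.0968).

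Some chaperones and folding factors of the endoplasmic reticulum (ER) rose by small amounts. Of 26 tested genes of the unfolded protein response list 10 rose, none fell and 16 did not pass (38.5% called), with a median of 0.10, and none of the 26 differed among the 3 hydroxylated compounds by the F test. Herpud1, which ties ER-associated degradation together, ranged from 3.48 through 3.57 to 3.64 on unhydroxylated arrays and from 3.78 through 3.95 to 3.98 on hydroxylated arrays, without overlap. It rose 1.29-fold (log2 change 0.36 ± 0.04 SE, adjusted p = 0.000645). Sdf2l1, an ER chaperone cofactor, rose by 0.32 ± 0.05 SE (adjusted p = 0.00535). Creld2, a secreted ER stress protein, rose by 0.28 ± 0.05 SE (adjusted p = 0.0169), and its sides overlapped, with 1.56 to 1.99 unhydroxylated and 1.88 to 2.13 hydroxylated. The co-chaperones Dnajb9 and Dnajb11 rose by 0.23 and 0.15, the degradation factors Edem1, Sel1l and Syvn1 by 0.19, 0.18 and 0.25, and the chaperones Hyou1 and Hspa5 by 0.17 and 0.15. Calls for Herpud1, Sdf2l1, Creld2, Dnajb9 and Dnajb11 were kept whichever 1 array was left out. The list's count of rises was 5 without DMSO replicate 2 or 3 and 6 without 1-naphthol replicate 2 or naphthalene replicate 3, and 2 members fell without naphthalene replicate 1. Folding enzymes and sensors that did not pass included Pdia4 (0.04), Calr (-0.03), Hsp90b1 (0.01), Xbp1 (0.08) and Atf6 (-0.10).

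Promoters of 2 of these ER genes, Hspa5 and Creld2, are shown because they hold the ER stress response element in its textbook spacing, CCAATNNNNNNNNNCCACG, marked by capitals. Promoter windows were matched for 9 of the 10 genes that rose, and 2 of the 9 hold it on either strand, against 0.0657% of the 33465 windows. For the cholesterol genes described below, the sterol response element in the form TCACNCCAC was in none of the 8 windows matched for the 8 genes that fell, against 1.12% of all windows. The CCACG end of the ER element can share letters with the reverse strand of the GCGTG core. The Hspa5 window is chr3:38452766-38453065 (plus strand) and the Creld2 window is chr7:121789134-121789433 (plus strand, with the element on the opposite strand). A match is a description of these letters only, and bases outside the windows were not searched.
Hspa5: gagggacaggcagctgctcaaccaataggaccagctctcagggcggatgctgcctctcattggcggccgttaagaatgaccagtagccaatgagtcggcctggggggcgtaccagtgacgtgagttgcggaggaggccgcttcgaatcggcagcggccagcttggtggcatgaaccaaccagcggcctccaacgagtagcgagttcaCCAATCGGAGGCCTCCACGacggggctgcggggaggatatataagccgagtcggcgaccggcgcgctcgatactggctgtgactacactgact
Creld2: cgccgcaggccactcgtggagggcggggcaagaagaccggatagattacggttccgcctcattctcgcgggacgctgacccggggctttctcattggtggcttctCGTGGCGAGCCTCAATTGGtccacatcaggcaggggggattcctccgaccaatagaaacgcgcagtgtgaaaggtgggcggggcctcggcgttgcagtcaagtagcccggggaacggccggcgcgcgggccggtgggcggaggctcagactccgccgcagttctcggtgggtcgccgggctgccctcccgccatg

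Genes outside these pathways also rose. Nefl and Nefm encode the light and medium neurofilament chains, best known from neurons. Nefl ranged from -4.22 through -3.98 to -3.69 unhydroxylated and from -3.49 through -3.21 to -2.91 hydroxylated, and rose 1.65-fold (log2 change 0.72 ± 0.07 SE, adjusted p = 0.000504). Nefm ranged from -6.01 through -5.35 to -5.14 and from -5.11 through -4.50 to -4.41, and rose 1.81-fold (0.86 ± 0.13 SE, adjusted p = 0.00487). The sides did not overlap in either gene. Sgk2, a serum and glucocorticoid regulated kinase, rose by 0.69 ± 0.11 SE (adjusted p = 0.00745), the transcription factor Bhlha15 by 0.54 ± 0.07 SE (adjusted p = 0.00177) and the mitochondrial branched-chain aminotransferase Bcat2 by 0.51 ± 0.09 SE (adjusted p = 0.0131). These 5 calls were kept whichever 1 array was left out. Slc17a1, a phosphate and urate transporter, Lix1, Vom2r47 and Mia rose by 0.52, 0.55, 0.55 and 0.61 but lost their calls with 2, 1, 10 and 3 arrays left out in turn, at adjusted p up to 0.061, 0.0715, 0.0953 and 0.0786, each highest without DMSO replicate 2 or 3. Socs3, a feedback inhibitor of cytokine signalling, rose by 0.47 (adjusted p = 0.0284; lost with 4 arrays left out, at up to 0.0768 without DMSO replicate 3).

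The fall with the smallest adjusted p was that of Fam25a. Its level ranged from -0.73 through -0.67 to -0.58 on unhydroxylated arrays and from -1.78 through -1.37 to -1.25 on hydroxylated arrays, a fall by 0.75 on the log2 scale (SE 0.07, adjusted p = 0.000454), without overlap. Vil1, the microvillus protein villin, ranged from -4.33 through -4.23 to -4.14 and from -5.15 through -5.03 to -4.59, and fell by 0.70 (SE 0.08, adjusted p = 0.00084). Car3, a carbonic anhydrase abundant in liver, fell by 0.64 (SE 0.10, adjusted p = 0.00733), from between 2.91 and 3.39 to between 2.18 and 2.85. The levels of Car3 were lower with naphthalene (2.93 ± 0.02 SD, n = 3) than with DMSO (3.35 ± 0.05), on different slides, and lowest with 1,5-naphthalenediol (2.24 ± 0.06). Prss8, a membrane-anchored serine protease, fell by 0.48 (SE 0.06, adjusted p = 0.00155), and Epcam, an adhesion protein of biliary and progenitor cells, fell by 0.40 (SE 0.05, adjusted p = 0.00173). Epcam is in the bile duct marker list, of which 2 of the 8 genes with a probe were well above background on all arrays. The summed linear level of that list was 1187 to 1349 unhydroxylated and 954 to 1204 hydroxylated, and its part in the result was not tested. Msln, Calhm5, Npw and the fructose transporter Slc2a5 fell by 0.55, 0.63, 0.49 and 0.47. All 9 calls in this paragraph were kept whichever 1 array was left out, and those for Rasl10a (-0.57) and LOC102553016 (-0.55) were too. Sdr16c5, which oxidises retinol, had a change of -0.82 (adjusted p = 0.0255) and lost its call without DMSO replicate 1, 2 or 3, at up to 0.0721. Across slides, naphthalene itself lay below DMSO by 1.34 for Sdr16c5 (95% interval of the difference -1.76 to -0.92) and by 0.60 for Msln (-1.02 to -0.17). With 2,7-naphthalenediol these genes differed from naphthalene by 0.49 (0.07 to 0.92) and 0.01 (-0.42 to 0.44). For Prss8 and Npw naphthalene did not lie below DMSO (0.29 and 0.13). Birc7, Fam107a, Eif4e3 and Nectin4 fell by 0.67, 0.59, 0.54 and 0.51 and lost their calls with 11, 11, 7 and 1 arrays left out in turn, at up to 0.111, 0.0809, 0.0932 and 0.0517.

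**Figure D3:**
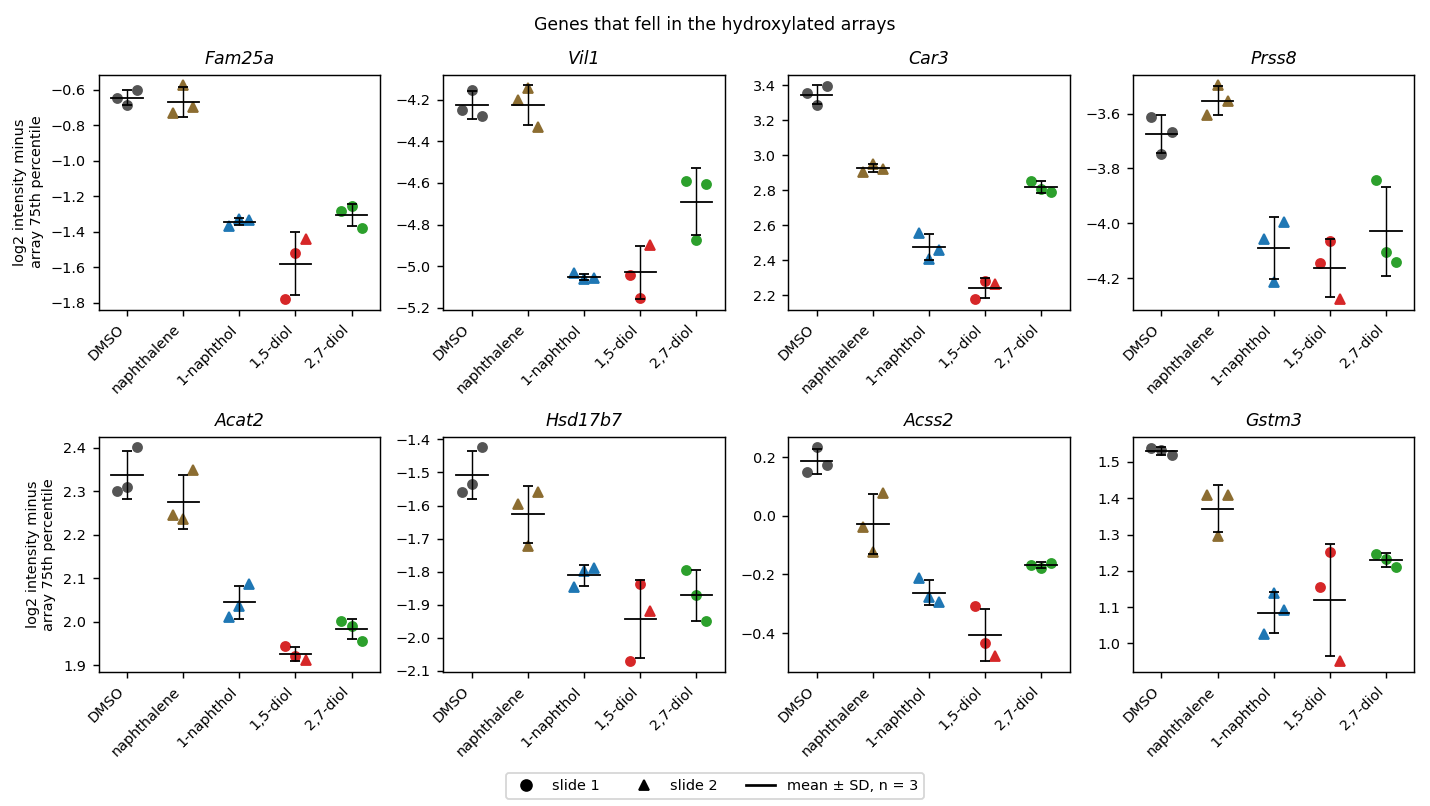
Level of 8 genes that fell, by group, drawn as for the genes that rose: 1 point per array, with the mean and SD of 3 arrays. In each panel the hydroxylated arrays of a slide (circles or triangles) lie below the unhydroxylated arrays of the same slide, and Car3 and Gstm3 also show lower naphthalene than DMSO levels.

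Some lipid synthesis genes fell. In the cholesterol list 8 of 28 fell, none rose and 20 did not pass (28.6% called), with a median of -0.11. Acat2, which makes acetoacetyl-CoA in the cytosol, ranged from 2.24 through 2.31 to 2.40 unhydroxylated and from 1.91 through 1.99 to 2.09 hydroxylated, and fell by 0.32 (SE 0.04, adjusted p = 0.000671). The sterol-pathway enzymes Hsd17b7 (-0.31), Cyp51 (-0.25), Msmo1 (-0.25), Lss (-0.21), Ebp (-0.18) and Sc5d (-0.14) and the isoprenoid enzyme Fdps (-0.30) completed the 8. Insig1, a regulator of sterol synthesis (0.03, adjusted p = 0.685), did not pass. Acat2, Hsd17b7, Cyp51 and Ebp kept their calls whichever 1 array was left out. The number of falls was 5, 4 or 4 without DMSO replicate 1, 2 or 3 and 5 without 1,5-naphthalenediol replicate 1. Of 31 genes of fatty acid and triglyceride synthesis 4 fell, 1 rose and 26 did not pass (16.1% called). Acly and Acss2, both sources of cytosolic acetyl-CoA, fell by 0.38 (adjusted p = 0.0186) and 0.37 (adjusted p = 0.00557) and were called with any array left out. The desaturase Fads2 (-0.22) and the pyruvate kinase Pklr (-0.28) lost their calls with 3 and 9 arrays left out, and the rise was that of the NADPH source Me1 (0.14). Leaving out 1 array gave 2 to 5 falls in this list, with 2 without DMSO replicate 2 or 3 or naphthalene replicate 3.

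**Figure D4:**
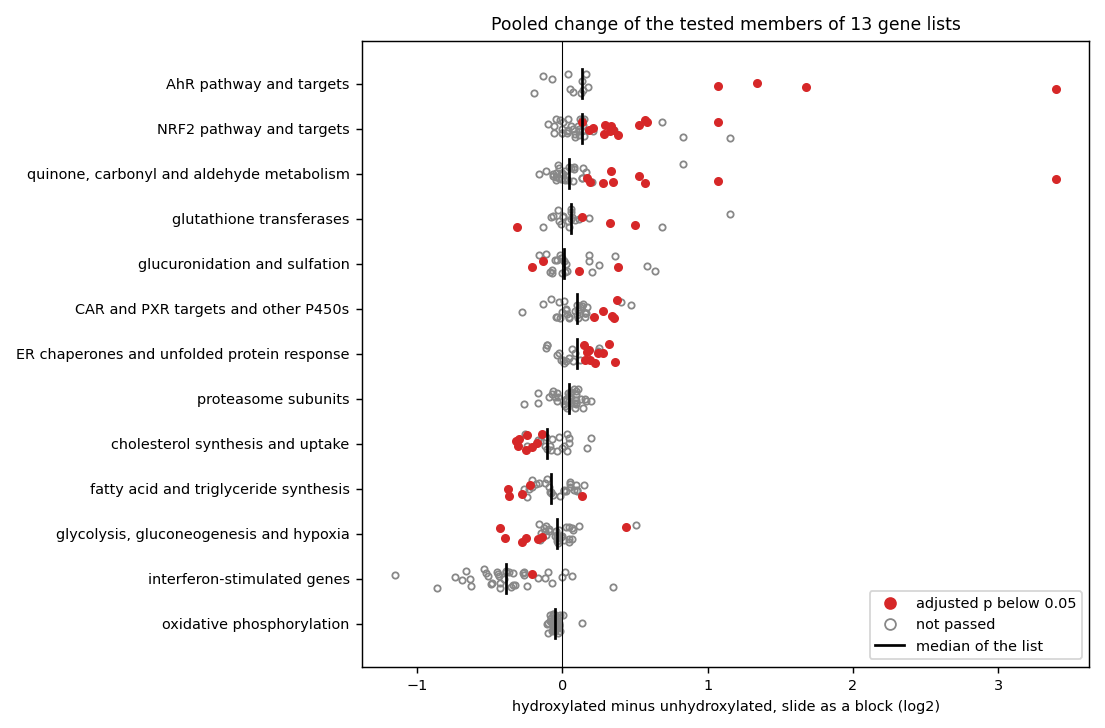
Pooled log2 change of the tested members of 13 gene lists; red points passed an adjusted p of 0.05, open points did not, and the vertical bar is the list's median. Red points lie to the right in the AhR, NRF2, quinone and ER lists and to the left in the cholesterol list, and the interferon list lies to the left with 1 red point.

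Most other lists held few calls. None of 37 proteasome subunits, 39 genes of oxidative phosphorylation or 17 of bile acid synthesis passed in limma's test, against 4.1% of all genes; 11, 9 and 6 of them had an unadjusted p below 0.05, as had 4509 of all genes. Leaving out 1 array gave between 0 and 2, 1 and 1 calls in these lists, and normexp correction gave 3, 0 and 1. Quantile normalization gave 4 proteasome rises. Leaving out the naphthalene arrays leaves the change of slide 1 alone. There, 10 proteasome genes fell and 1 rose, 9 of oxidative phosphorylation fell and 1 rose, and 1 of bile acid synthesis fell and 1 rose. Without the 2,7-naphthalenediol arrays 9 proteasome genes rose, and 2 of bile acid synthesis rose and 1 fell. The list of glycolysis, gluconeogenesis and hypoxia held more: of 37 genes 6 fell and 1 rose (18.9% called, against 4.1% of all genes). The riser Ankrd37 (0.44, adjusted p = 0.00681) was the 1 member that kept its call whichever of the 15 arrays was left out. The falls numbered 0 without DMSO replicate 3, 1 without DMSO replicate 1 or 2, 1-naphthol replicate 3 or naphthalene replicate 2, 2 without 1,5-naphthalenediol replicate 1 or naphthalene replicate 3, and 3 without 1,5-naphthalenediol replicate 2 or 3. The falls in that list included the phosphofructokinase Pfkp (-0.43, adjusted p = 0.0284) and the lactate transporter Slc16a3 (-0.39, adjusted p = 0.0437). Single members of other lists that kept their calls were the co-chaperone Fkbp4 (0.27), the homogentisate oxidase Hgd (0.32), the zinc transporter Slc39a14, and, downward, the lipase inhibitor Angptl4 (-0.34) and Txnip (-0.28). Of 38 interferon-stimulated genes 1 fell (Cxcl9, a chemokine, by 0.21), although the list's median was -0.39: it was -0.84 on slide 1 and 0.05 on slide 2. The number of falls was 0 without DMSO replicate 1, 2 or 3 or 1,5-naphthalenediol replicate 1, 2 without 1,5-naphthalenediol replicate 3 or naphthalene replicate 2, and 4 without naphthalene replicate 1. It was 29 without all naphthalene arrays, which leaves the change of slide 1 alone. On the arrays the centred mean of this list was 1.01 and 0.88 in DMSO replicates 2 and 3, 0.28 in DMSO replicate 1 and at most 0.10 in the other 12 arrays. Mx1, an antiviral GTPase, was -0.0049, 2.05 and 1.60 in the 3 DMSO arrays and between -1.73 and -0.33 on the hydroxylated arrays, while naphthalene gave -1.54, -0.83 and -0.88. Its pooled change of -1.16 did not pass (adjusted p = 0.119).

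The slides were then compared. Against DMSO on slide 1, 1452 genes (7.34%) differed in the diols, a count that fell to 3 without DMSO replicate 3, 30 without DMSO replicate 2, 465 without DMSO replicate 1 and between 381 and 833 without any 1 diol array. Against naphthalene on slide 2, 21 genes (0.106%) differed in the 1-naphthol and 1,5-naphthalenediol arrays, with 3363 at an unadjusted p below 0.05. That count was 2 or 3 without any 1 array of 1-naphthol or naphthalene and 53 without the 1,5-naphthalenediol array. Called in the same direction on both slides were 5 genes (0.0253%), with none in opposite directions: Aldh3a1 and Piga, an enzyme of GPI-anchor synthesis, rose, and Fam25a, Vil1 and LOC108352174 fell. No gene was called on both slides without DMSO replicate 2 or 3, Fam25a and Piga without DMSO replicate 1, and Aldh3a1 alone without any 1 array of 1-naphthol or naphthalene. Aldh3a1 and Fam25a were called without 2,7-naphthalenediol replicate 2 or 3 or 1,5-naphthalenediol replicate 1 or 2, and 9 genes without the 1,5-naphthalenediol array of slide 2. Aldh3a1 rose at least 6.62-fold on slide 1 (adjusted p = 0.023) and at least 15.5-fold on slide 2 (adjusted p = 0.00285), and Fam25a changed on the log2 scale by -0.80 (adjusted p = 0.0173) and -0.70 (adjusted p = 0.0177). All 811 pooled calls had the same sign on both slides, which a pooled test favours. Among the 1452 genes called on slide 1 the share with the same sign on slide 2 was 48.5%, against 51.1% of all genes.

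**Figure D5:**
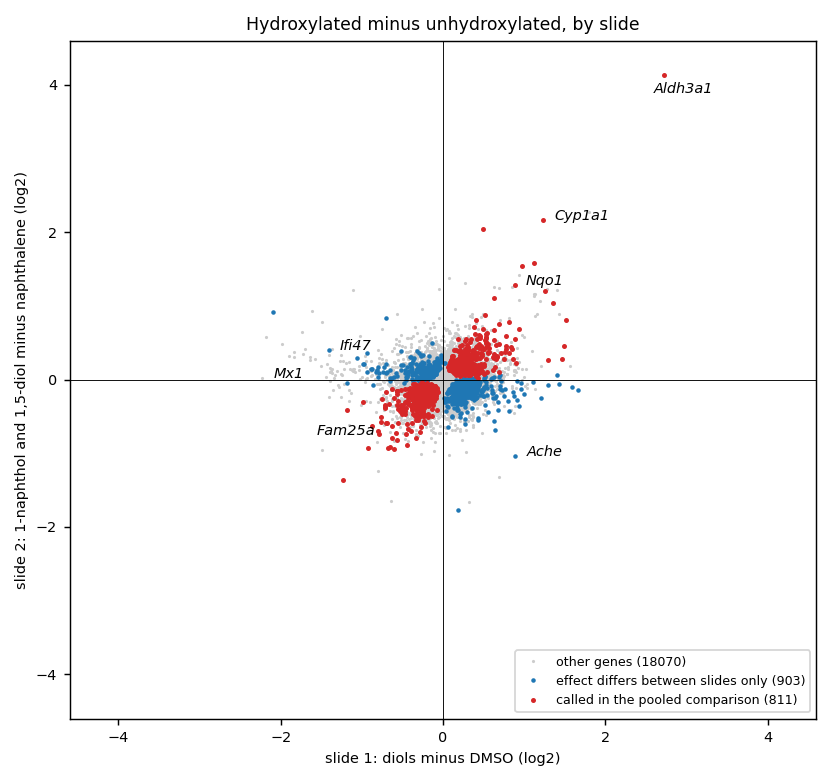
Hydroxylated minus unhydroxylated log2 change on slide 1 (diols against DMSO, horizontal) and slide 2 (1-naphthol and 1,5-naphthalenediol against naphthalene, vertical), with 1 point per gene. Red marks the 811 pooled calls, which lie at the lower left and upper right, and blue marks the 903 further genes whose effect differed between the slides.

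The effect differed between the slides in 922 genes (4.66%), tested as an interaction, and in 860 of them the signs were opposite; 19 were pooled calls. Because slide and reference changed together, a difference between the slides cannot be told apart from a difference between DMSO and naphthalene or between the compounds on each slide. Interferon genes were among those with larger differences: Ifi47 changed by -1.41 on slide 1 and 0.40 on slide 2 (adjusted p of the difference 0.0384) and Cxcl11 by -1.18 and -0.05 (adjusted p = 0.0421). Ache, acetylcholinesterase, changed by 0.89 and -1.04 (adjusted p = 0.0269). Naphthalene differed from DMSO in 144 genes (0.728%) when estimated across the slides and adjusted over this contrast alone, a count that ran from 1 to 697 as 1 array was left out, and in 674 genes (3.41%) when adjusted over the 10 pairs together.

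Allowing for correlation between arrays of a group left few genes. With compound as a random block beside slide (consensus correlation 0.387, with all 15 arrays still entering), limma called 12 genes, 5 rising and 7 falling, all of them among the 811, and 1821 at an unadjusted p below 0.05. The risers were Aldh3a1 (adjusted p = 0.00414), Nefl (0.72 ± 0.11 SE, adjusted p = 0.0368), Aox1, Herpud1 and Tsku, a secreted protein of the liver. The fallers were Fam25a (-0.75 ± 0.09 SE, adjusted p = 0.00636), Vil1, Acat2, Gstm3, Ropn1l, BC086588 and XR_342658. Of the lists, this left 1 riser in the AhR, the NRF2 and the ER list, 2 in the quinone list and 1 faller in the cholesterol list. Cyp1a1 and Nqo1 were not among them, with adjusted p of 0.0669 and 0.085. With slide as a block, the change without all DMSO arrays is that of slide 2, and without all naphthalene arrays it is that of slide 1. Counts from these 2 settings are therefore no separate check of the pooled result. Without all DMSO arrays 22 genes were called, 16 of them pooled calls, and these included Aldh3a1, Nefl (0.76), Fam25a (-0.70), Prss8 (-0.58) and Creld2 (0.40). That left 1 rise each in the AhR, the quinone and the ER lists and none in the NRF2 list, and no fall in the cholesterol or the fatty acid list. Without all naphthalene arrays, 2827 genes were called, and without 2,7-naphthalenediol 1862.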

How the data were processed

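Each array's scanner file was deposited by the authors, and the values used are intensities in the processed-signal column, background-subtracted by Feature Extraction 10.7.1.1 per the file headers. From the deposited intensities, log2 values were computed and the 75th percentile of each array's gene spots was subtracted. Spots of 1 probe were averaged after control and outlier spots were left out. A probe was kept if any group had it well above background on each of its 3 arrays (23542 probes), and the brightest probe stood for a gene, which gave 19784 genes, 10489 named by a symbol and 9295 by an accession. The models were fitted with limma 3.58.1 in R 4.3.3 (lmFit, eBayes) with slide as a fixed block, and p-values were adjusted by Benjamini-Hochberg over all genes, in the pairs over all genes and 10 pairs together. The model was tested on simulated data, in which arrays were independent and a pooled change was the same in all hydroxylated compounds. That simulation does not cover correlation between arrays of a compound, so it cannot show how such correlation affects the pooled calls. Promoter windows came from RefSeq (GRCr8).

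Where a probe was not well above background on any array of a side, the fold is given as "at least". It is the slide-blocked difference after each array of the dim side took the higher of its lowest signal well above background and the probe's own. The number of arrays limits the precision, and the p-values measure the spread between arrays, which the labels call independent experiments. In the pooled comparison that spread also holds the differences between the groups of a side.

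The members and the gene lists were chosen with earlier results of these data known. The genes named were the key genes, the 15 that rose most and the 15 that fell most among called genes whose arrays were separated on both slides, up to 4 called members of each list, the 8 with the largest slide difference and the 8 with the widest range among hydroxylated compounds. A few genes are not reported here. Other list members were named after their values were seen. Same-numbered arrays deviated together in 2 of 30 pairs. Whether same-numbered arrays shared an experiment or a lot of cells was not tested. Alternatives changed the normalization, background correction, filter, block, probe rule and arrays entering. The planned normexp correction used the median signal, as the files held no mean signal column.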

Additional observations from a re-analysis of the deposited data

Results flagged for a closer look

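Of 98 sides (hydroxylated or unhydroxylated arrays) of 49 genes examined with Dixon's ratio, 5 had 1 array far from the others; chance marks about 1 in 20. Aldh3a1 had its lowest unhydroxylated level in naphthalene replicate 1 (-7.81), Txnrd1 in the same array (-1.09) and Ugt1a6 too (5.94). Among the hydroxylated arrays, Calhm5 was highest in 2,7-naphthalenediol replicate 1 (-4.43) and Nefm lowest in 2,7-naphthalenediol replicate 3 (-5.11).

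The effect differed between the slides by the interaction test in 10 named genes. Slide 2 minus slide 1 was positive for the interferon-related genes Ifi47 (1.81) and Cxcl11 (1.14) and for Mitd1 (1.03). It was negative for Ache (-1.93), Ctbp2 (-1.33), Kif20b (-1.32), Rep15 (-1.24), the efflux pump Abcc4 (-0.412), the ubiquitin ligase Syvn1 (-0.303) and the P450 reductase Por (-0.297). Slide and reference group changed together in all of these and cannot be told apart.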

How the results depend on the processing

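Of 88 named genes that passed, Nefl and Fam25a kept their calls under all 30 alternatives and Aldh3a1 under the 29 that tested it (it was not well above background on all 15 arrays), and none reversed. The pooled count of 811 became 393 without the slide block, 3047 with 5 group means, 12 with compound as a random block, 536 with median centring and 134 with no filter on dim probes. It was 22, 2827, 1862 and 411 without all arrays of DMSO, naphthalene, 2,7-naphthalenediol and 1,5-naphthalenediol, and 244 to 1030 without 1 array. Without DMSO the change is that of slide 2 alone, and without naphthalene that of slide 1 alone. With slide and replicate block it was 426, and 53 of the 88 calls were kept. Of the 15 arrays, 5 correlated best with their own number. Whether same-numbered arrays shared an experiment was not tested. With no filter, slide 1, slide 2, both slides, the slide difference, the F test, the pairs and naphthalene against DMSO gave 33, 2, 0, 62, 921, 3316 and 15. Slide 2 gave 38 with quantile normalization, 386 with normexp, 58 with probes well above background on all 15 arrays and 53 without 1,5-naphthalenediol. Both slides gave 8, 59 and 14 under the first 3 of these. The slide difference gave 1944 with median centring and 1421 with normexp. Without the slide block the F test gave 4737, the pairs 31682 and naphthalene against DMSO 4979. The last gave 325 with quantile normalization, 65 with median centring, 638 with normexp, 356 with the stricter filter and 86 with the mean of probes. Leaving out 1 array gave 3 to 833 on slide 1, 2 to 53 on slide 2, 0 to 9 on both, 274 to 1063 for the slide difference, 940 to 2382 for the F test, 5532 to 13083 for the pairs and 1 to 697 for naphthalene against DMSO. Models of 5 groups with slide could not be fitted without 1,5-naphthalenediol replicate 3. Changes of sign occurred in genes that had not passed: without DMSO, Abcc4 had -0.0659, Egr1 -0.359 and Mx1 0.0183; without 2,7-naphthalenediol Egr1 had -0.156, and with the mean of probes Ugt1a6 had 0.232. Apart from the filters, which test other genes, and fewer arrays, the cause was not tested.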
